A study of Mus musculus with 12 samples.

Results

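The NF-kB subunits and their inhibitors were examined in the aorta of 12 female mice of the outbred CD-1 stock. The genes were a fixed set of 10 symbols, found by exact symbol among probe sets that name a single gene: 9 of the 10 were measured, each by 1 probe set, among 22180 genes in all, and the remaining gene of the set is not analysed here. They were the cytoplasmic inhibitors Nfkbia, Nfkbib and Nfkbie, the nuclear IkB protein gene Nfkbiz, the ubiquitin-editing inhibitor Tnfaip3, and the subunits Rela, Rel, Relb and Nfkb2. The treated group of 6 mice received CM-695, which inhibits the deacetylase HDAC6 and the cyclic GMP-degrading phosphodiesterase PDE9, by intraperitoneal injection at 80 mg/kg, 2 h and again 1 h before sacrifice. The other 6 mice received saline vehicle by the same route; by the series design the vehicle was injected once, so the number of injections and the drug cannot be told apart. All mice were perfused with buffered saline and RNA of each was hybridised to its own Affymetrix gene array. The sources used here give neither ages nor the time of day at collection.

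NF-kB transcription factors are dimers of Rel family subunits that inhibitors of the IkB family hold in the cytoplasm. Inflammatory receptors activate the IKK kinase complex, which marks the inhibitors for destruction and lets the dimers enter the nucleus. NF-kB then induces genes for several of its own inhibitors, Nfkbia and Tnfaip3 among them, which gives the pathway negative feedback. Glucocorticoids also raise Nfkbia transcription in many cell types. In the vessel wall the pathway is known for inducing adhesion molecules and chemokines in endothelium. Transcript levels do not measure NF-kB activity, which depends on protein destruction and nuclear entry.

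The inhibitor and subunit genes are regulated in part through their promoters. The 250 bases before the RefSeq start (GRCm38.p6) were therefore read for the 7 of the genes that had an entry. Tnfaip3 had 2 starts and Nfkb2 had 3, and of these only the most upstream was read. The 7 stretches were searched on both strands for the kappaB consensus, and 4 of them (Nfkbia, Tnfaip3, Nfkb2 and Rel) held at least 1 match. Of 32851 promoter entries of the same length, from 27025 genes and with all entries of a gene counted, 5.0% held a match. The pair of matches in Rel overlapped. The letters ACANNNTGT, the core of a glucocorticoid receptor palindrome, occurred in 0 of the 7 and in 5.84% of all entries. A match describes letters and is not evidence of binding. The promoters of Nfkbia, the gene that differed between the groups, and of Tnfaip3 and Nfkb2, which also carry kappaB letters, are given 5′ to 3′ on the gene's strand, with kappaB matches in capitals. The stretch of Nfkbia is chr12:55492648-55492897 on the minus strand, that of Tnfaip3 chr10:19015411-19015660 on the minus strand, and that of Nfkb2 chr19:46304487-46304736 on the plus strand.
Nfkbia: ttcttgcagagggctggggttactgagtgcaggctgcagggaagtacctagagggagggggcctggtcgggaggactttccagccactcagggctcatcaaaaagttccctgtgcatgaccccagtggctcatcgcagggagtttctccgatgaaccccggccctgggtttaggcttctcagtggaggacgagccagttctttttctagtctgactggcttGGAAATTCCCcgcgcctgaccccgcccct
Tnfaip3: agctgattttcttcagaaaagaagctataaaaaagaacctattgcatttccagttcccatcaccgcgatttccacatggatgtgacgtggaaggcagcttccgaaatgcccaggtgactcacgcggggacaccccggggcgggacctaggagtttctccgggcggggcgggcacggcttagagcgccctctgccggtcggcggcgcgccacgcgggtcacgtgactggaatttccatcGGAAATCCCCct
Nfkb2: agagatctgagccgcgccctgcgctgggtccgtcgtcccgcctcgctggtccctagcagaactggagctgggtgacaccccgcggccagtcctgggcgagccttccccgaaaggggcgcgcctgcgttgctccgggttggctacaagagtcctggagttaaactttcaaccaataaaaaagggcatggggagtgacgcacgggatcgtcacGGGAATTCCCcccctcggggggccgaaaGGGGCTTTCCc

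The deposited table held RMA values, which are log2 expression after background correction, normalization across arrays and summary per probe set. Array medians lay between 4.69 and 4.74. Smooth muscle genes that define the vessel wall were bright in all mice: Acta2 averaged 12.86 ± 0.33 and Myh11 11.29 ± 0.53 (SD, n = 6) after vehicle, and the endothelial genes Pecam1 and Cdh5 averaged 9.34 ± 0.26 and 9.22 ± 0.13. The tissue also held other cells, since the cardiac actin gene Actc1 averaged 10.85 ± 0.68 and the 9 measured adipocyte markers averaged 10.27 ± 0.17 after vehicle. Differences are CM-695 minus vehicle on the log2 scale with limma's standard error (SE). A gene passed when limma's Benjamini-Hochberg adjusted p, over 41345 probe sets, was below 0.05.

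Nfkbia, which encodes IkB alpha, was the 1 gene of the 9 that passed, and it was lower after CM-695. Its log2 level ran from 8.71 to 9.12 after vehicle (median 8.89) and from 7.68 to 8.21 after CM-695 (median 7.96). All 6 treated mice lay below all 6 vehicle mice, with CM-695 mouse 3 lowest and mouse 4 highest among the treated. The means were 7.99 ± 0.20 and 8.90 ± 0.14 (SD, n = 6 each). They differed by -0.91 (SE 0.11; limma adjusted p = 0.00282; 95% confidence interval -1.14 to -0.68), or 1.88-fold. Of all genes 0.167% passed, and 0.144% passed as lower; these were 32 genes, among which Nfkbia ranked 10 by p and 23 by size of fall, and 0.636% had every treated mouse below every vehicle mouse. In bulk tissue, fewer cells that express a gene and less RNA per cell cannot be told apart. Leaving out any 1 mouse gave differences of -0.96 to -0.85 (adjusted p 0.00398 to 0.0119).

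The other inhibitors of the IkB family overlapped between the groups. Nfkbib, which encodes IkB beta, a slower acting cytoplasmic inhibitor, ran from 6.50 to 6.81 after vehicle (median 6.64) and from 6.59 to 6.86 after CM-695 (median 6.69), a difference of 0.08 (95% confidence interval -0.11 to 0.26, SE 0.087, limma adjusted p = 0.827). Treated mice lay on both sides of the vehicle mean, 3 above and 3 below. Nfkbie, for IkB epsilon, ran from 4.41 to 4.72 after vehicle (median 4.55) and from 4.30 to 5.05 after CM-695 (median 4.79), a difference of 0.17 (95% confidence interval -0.14 to 0.48, SE 0.14, adjusted p = 0.757). With the mean of cardiac markers as a covariate it was 0.34 (SE 0.19, adjusted p = 0.755), and leaving out 1 mouse gave 0.10 to 0.26. Here 3 treated mice lay above the vehicle range and 2 below it, and the SD was 0.34 after CM-695 against 0.12 after vehicle. Its mean was below the median of all values, 4.72, where weak expression and none are not separated.

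Nfkbiz encodes a nuclear IkB protein that works with NF-kB on a subset of its targets. It ran from 5.62 to 6.20 after vehicle (median 5.71) and from 5.50 to 5.96 after CM-695 (median 5.84), a difference of 0.02 (95% confidence interval -0.24 to 0.27, SE 0.12, limma adjusted p = 0.977). Vehicle mouse 2 was the highest of the 12 mice. The sign of this difference was not stable, with values from -0.01 to 0.10 across the 20 alternative settings.

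Tnfaip3, a feedback gene that NF-kB induces, removes activating ubiquitin chains upstream of IKK. It ran from 5.26 to 5.68 after vehicle (median 5.54) and from 5.06 to 5.67 after CM-695 (median 5.38), and 1 treated mouse lay below the vehicle range. The difference was -0.11 (95% confidence interval -0.35 to 0.14, SE 0.11, limma adjusted p = 0.816). The lower bound of this interval lies above the upper bound of that of Nfkbia. With the mean of cardiac markers as a covariate the difference was -0.30 (SE 0.14, adjusted p = 0.681), and without CM-695 mouse 5 it was -0.04 (SE 0.11).

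Among the subunits, Rela, which carries the main activation domain of the classical dimer, ran from 7.96 to 8.53 after vehicle (median 8.20) and from 8.07 to 9.20 after CM-695 (median 8.22). The difference was 0.19 (95% confidence interval -0.20 to 0.57, SE 0.18, limma adjusted p = 0.799). CM-695 mouse 2 held the highest value, and without it the difference was 0.02 (SE 0.12, adjusted p = 0.965). Rel, the c-Rel subunit known from lymphocytes, ran from 6.35 to 6.77 after vehicle (median 6.43) and from 5.89 to 6.65 after CM-695 (median 6.38). Its difference was -0.15 (95% confidence interval -0.43 to 0.13, SE 0.13, adjusted p = 0.763), with 3 of 6 treated mice below the vehicle range. With the mean of cardiac markers as a covariate it was 0.04 (SE 0.16, adjusted p = 0.975).

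Relb and Nfkb2 encode the partners of the alternative pathway, in which the Nfkb2 precursor is cut to its active form. Relb ran from 5.75 to 5.96 after vehicle (median 5.87) and from 5.84 to 6.08 after CM-695 (median 5.95), a difference of 0.09 (95% confidence interval -0.077 to 0.26, SE 0.078, limma adjusted p = 0.763). Of the 6 treated mice, 5 lay above the vehicle mean and 3 above the vehicle range. Nfkb2 ran from 6.13 to 6.32 after vehicle (median 6.20) and from 5.94 to 6.67 after CM-695 (median 6.27), a difference of 0.08 (95% confidence interval -0.16 to 0.32, SE 0.11, adjusted p = 0.871). The treated mice spread more widely, with an SD of 0.24 against 0.079, mouse 4 being highest and mouse 2 lowest; this spread was not tested. The difference was 0.0021 without mouse 4 and 0.15 without mouse 2.

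**Figure D1:**
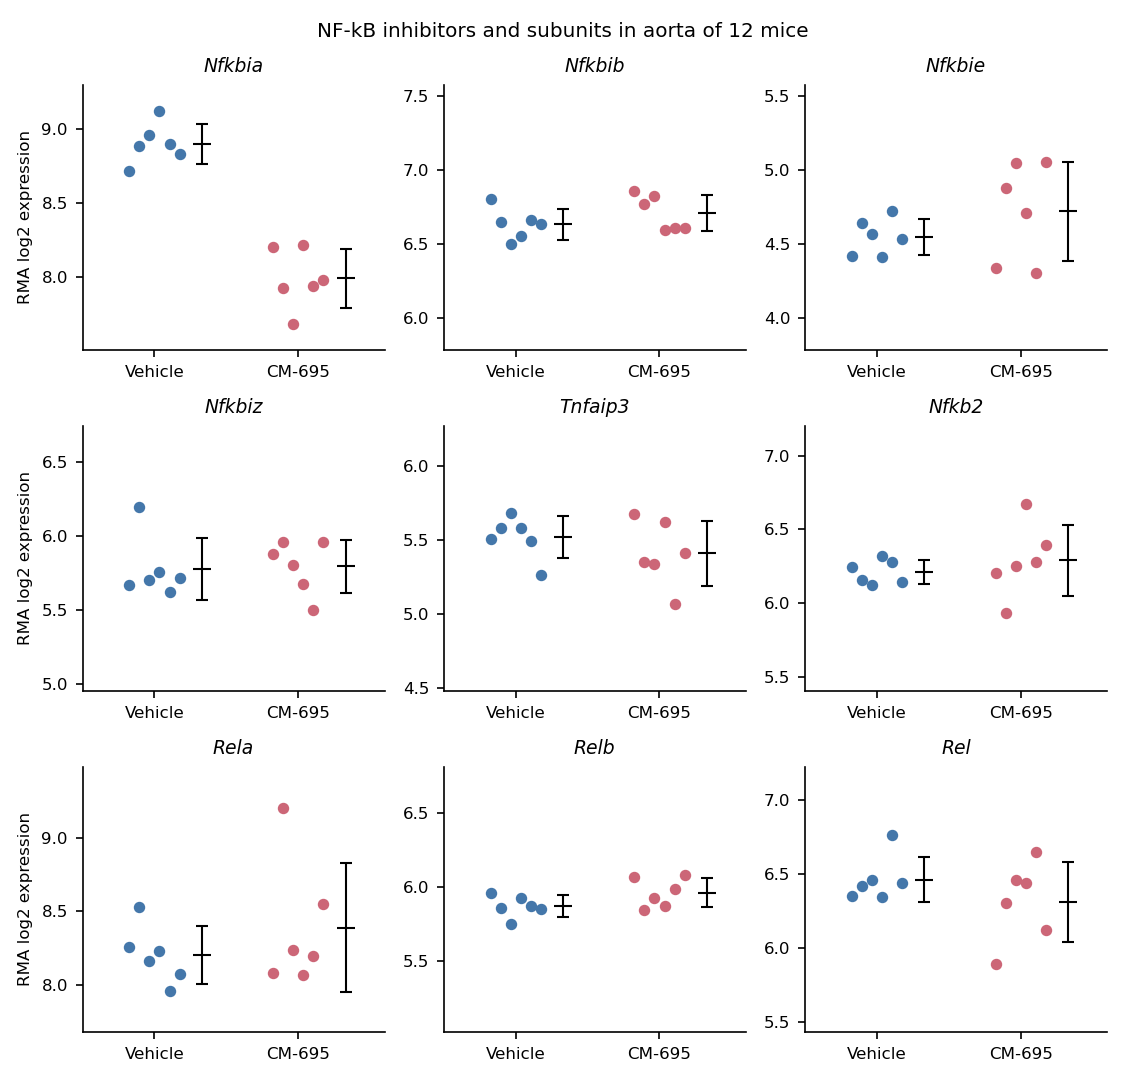
RMA log2 expression of the 9 genes in each mouse, with vehicle in blue and CM-695 in red, 6 mice each; the bar beside each group is its mean and SD, and every panel spans the same log2 range. Nfkbia runs from 7.68 to 8.21 after CM-695 and from 8.71 to 9.12 after vehicle, while the groups overlap for the other 8 genes.

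Across the 9 genes, CM-695 mouse 6 was the highest treated mouse for 3 and CM-695 mouse 5 the lowest for 3, and no treated mouse was highest or lowest for more. The median difference of the 9 genes was 0.08, with 6 above 0 and 3 below, against a median of 0.02 over all 22180 genes, of which 44.7% were below 0. At an unadjusted limma p under 0.05, 1 of the 9 genes was called, Nfkbia, against 9.10% of all genes.

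The change of each other gene was then set against that of Nfkbia, by fitting the within-array difference from Nfkbia for every probe set. All 8 differed from Nfkbia (limma adjusted p at most 0.000942), by 0.76 (SE 0.18) for Rel to 1.10 (SE 0.22) for Rela. Among the inhibitors the gap was 0.80 (SE 0.13) for Tnfaip3, 0.93 (SE 0.16) for Nfkbiz, 0.99 (SE 0.15) for Nfkbib and 1.08 (SE 0.20) for Nfkbie. For 7 of the 8 genes the within-array difference lay above the vehicle range in all 6 treated mice, and for Rel in 5 of 6. The background of this test is high: 97.9% of all genes differed from Nfkbia in the same way of testing, so the count of 8 shows only that these genes did not follow Nfkbia.

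**Figure D2:**
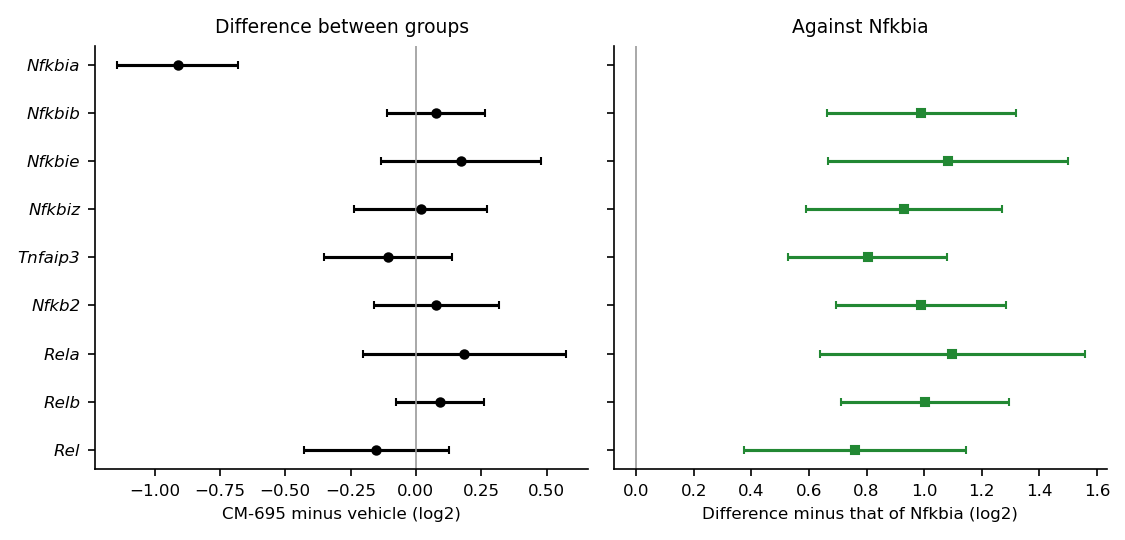
Left, CM-695 minus vehicle (log2) for the 9 genes; right, the same difference minus that of Nfkbia for the other 8. Points are limma estimates from 6 mice per group and bars 95% confidence intervals; the interval of Nfkbia, -1.14 to -0.68, lies below all the others on the left, and no interval on the right reaches 0.

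The rest of the pathway was followed in lists that held 147 measured genes, together with the glucocorticoid-induced genes. No gene of the 4 NF-kB lists passed limma's threshold. Other IkB proteins and ubiquitin editors (17 of 19 measured) had a median difference of 0.03, with 1 higher and 0 lower at an unadjusted p under 0.05, a level that 4.96% of all genes passed as higher and 4.14% as lower. That gene was Bcl3, a nuclear IkB protein and co-activator, at 0.28 (SE 0.12, adjusted p = 0.505). The small GTPase gene Nkiras1, which slows IkB destruction, differed by 0.28 (SE 0.14) and the zinc finger gene Zfand5 by -0.18 (SE 0.094).

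The IKK complex and the kinases above it (19 of 23 measured) had a median of 0.05, with 0 higher and 1 lower at an unadjusted limma p under 0.05. The shares of all genes at that level were 4.96% higher and 4.14% lower. Irak3, which encodes a brake on toll-like and interleukin-1 receptor signalling, ran from 6.70 to 7.06 after vehicle and from 6.02 to 6.61 after CM-695. All 6 treated mice lay below the vehicle range, as for 0.636% of all genes, with a difference of -0.53 (SE 0.11, adjusted p = 0.113). Its adjusted p was 0.0475 with the mean of macrophage markers as a covariate and between 0.0510 and 0.621 in the other 19 alternatives. Ikbke, an IKK-related kinase, differed by -0.15 (SE 0.089) and Tab2, an adaptor of the kinase TAK1, by 0.12 (SE 0.079).

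Receptors and adaptors (36 of 39 measured) had a median of -0.01, with 0 higher and 4 lower at an unadjusted limma p under 0.05. Of all genes 4.96% were higher and 4.14% lower at that level. The ubiquitin ligase gene Birc3, itself an NF-kB target, differed by -0.21 (SE 0.074, adjusted p = 0.397). For Birc3 6 of 6 treated mice lay below the vehicle range, as for 0.636% of all genes. The co-receptor gene Cd14 differed by -0.34 (SE 0.14, adjusted p = 0.484) and the interleukin-1 receptor accessory gene Il1rap by -0.22 (SE 0.099, adjusted p = 0.526).

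Target genes of NF-kB (45 of 45 measured) had a median of 0.07, with 5 higher and 5 lower at an unadjusted limma p under 0.05 and 0 past the threshold. At that unadjusted level 4.96% of all genes were higher and 4.14% lower. The differences of the 45 genes ran from -0.82 to 0.54. Of the 45 genes, 30 averaged above the median of all values, 4.72, and for the rest weak expression and none are not separated. Of the 5 higher genes, Il1b and Sele had vehicle means of 3.43 and 3.99, below that median. Nos2, Ccl5 and Ccl2 lay above it, at 4.88, 4.99 and 5.01. The 5 lower genes were brighter, with vehicle means of 5.47 to 7.64. Il1b, the cytokine interleukin-1 beta, ran from 2.97 to 3.84 after vehicle and from 3.81 to 4.14 after CM-695, a difference of 0.54 (SE 0.13, adjusted p = 0.171) at a dim signal. The survival gene Bcl2l1 ran from 6.46 to 6.98 after vehicle and from 5.99 to 6.37 after CM-695, a difference of -0.43 (SE 0.11, adjusted p = 0.203). For Bcl2l1 all treated mice lay below the vehicle range, as for 0.636% of all genes. The chemerin-binding receptor gene Ccrl2 differed by -0.41 (SE 0.12, adjusted p = 0.277). The mean of the 45 genes per mouse lay between 5.24 and 5.35 after vehicle and between 5.27 and 5.38 after CM-695, so the groups overlapped. Higher and lower genes cancel in such a mean, so the overlap does not show that single targets were unchanged.

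Glucocorticoid-induced genes, a list chosen with earlier results of these data known and sharing 1 gene with the target list, were lower for 7 of 31 measured, and 0 were higher, against 0.144% of all genes lower and 0.0225% higher. The 7 were the metallothionein genes Mt1 and Mt2, the clock gene Per1, the mTORC1 inhibitor gene Ddit4, the arrestin-related gene Arrdc2, the kinase gene Sgk1 and the EGFR inhibitor gene Errfi1. Their differences ran from -1.44 (SE 0.19, limma adjusted p = 0.00767) for Ddit4 to -0.68 (SE 0.10, adjusted p = 0.0224) for Arrdc2, around the -0.91 of Nfkbia. At an unadjusted p under 0.05, 14 were lower and 5 higher, so the list did not move as one, and its median was -0.24. Leaving out a mouse left 3 to 7 genes past the threshold, namely 3 when vehicle mouse 2, vehicle mouse 3, CM-695 mouse 3 or CM-695 mouse 5 was left out, and 4 when mouse 6 of either group was. Without dim probe sets 11 passed. With the cardiac marker mean as a covariate 0 of the 31 passed. In that fit 17 had an unadjusted limma p under 0.05, against 19 in the main fit. No share over all genes was taken in the covariate fit, so the 17 cannot be set against one. The differences of 6 of the 7 genes stayed about as large or grew with this covariate, and their SEs rose. Ddit4 then differed by -1.60 (SE 0.26), Errfi1 by -1.43 (SE 0.27), Sgk1 by -1.01 (SE 0.19), Per1 by -1.01 (SE 0.18), Arrdc2 by -0.74 (SE 0.14) and Mt1 by -0.83 (SE 0.12). Mt2 went from -1.24 (SE 0.20) to -0.95 (SE 0.25).

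**Figure D3:**
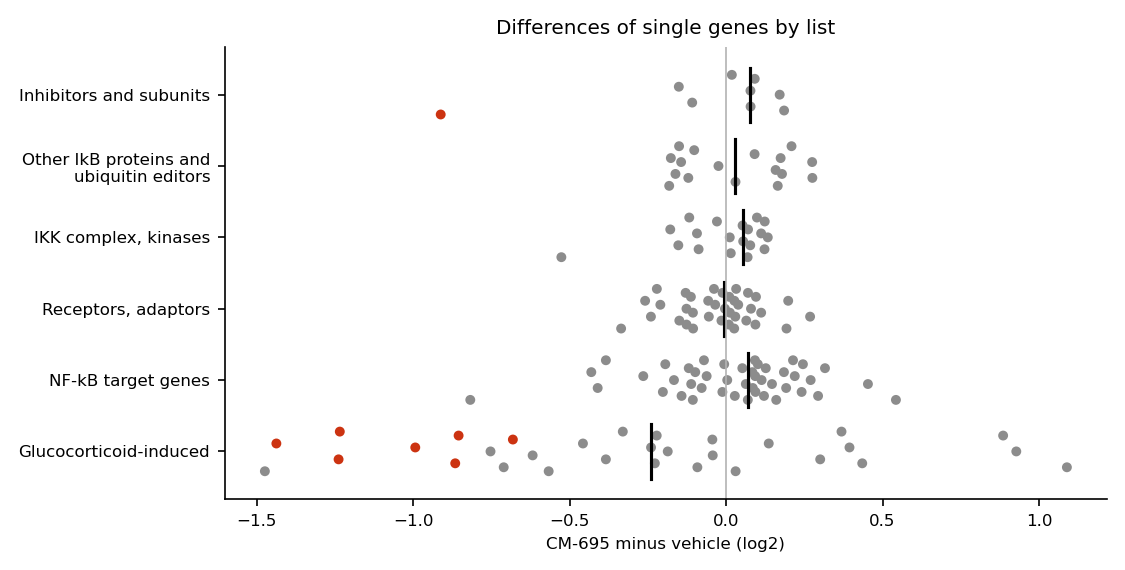
CM-695 minus vehicle (log2) of single genes, 1 point per gene, for the 9 inhibitor and subunit genes and 5 lists; red points passed limma's adjusted threshold of 0.05 and black lines are list medians. Nfkbia, at -0.91, and 7 glucocorticoid-induced genes are the only red points.

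The profile of Nfkbia across the 12 mice was compared with those of 18537 other named genes, by the root mean square difference of values centred on each gene's mean. The nearest was Coq10b, a coenzyme Q binding protein of mitochondria, at 0.154 log2, then Mt1 at 0.170, Arrdc2 at 0.195, the immediate early gene Csrnp1 at 0.200 and Sgk1 at 0.212. Coq10b ran from 8.08 to 8.26 after vehicle and from 6.98 to 7.48 after CM-695, a difference of -0.91 (SE 0.095, limma adjusted p = 0.00111). Mt1, Arrdc2 and Sgk1 are on the glucocorticoid list of 31 genes, which was chosen with earlier results known, and the measure favours any gene with a fall of similar size. Among the inhibitors and subunits the nearest was Tnfaip3, at 0.427, which ranked 1367. When each profile was centred within its group, 0 of these 5 genes were among the 5 nearest.

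**Figure D4:**
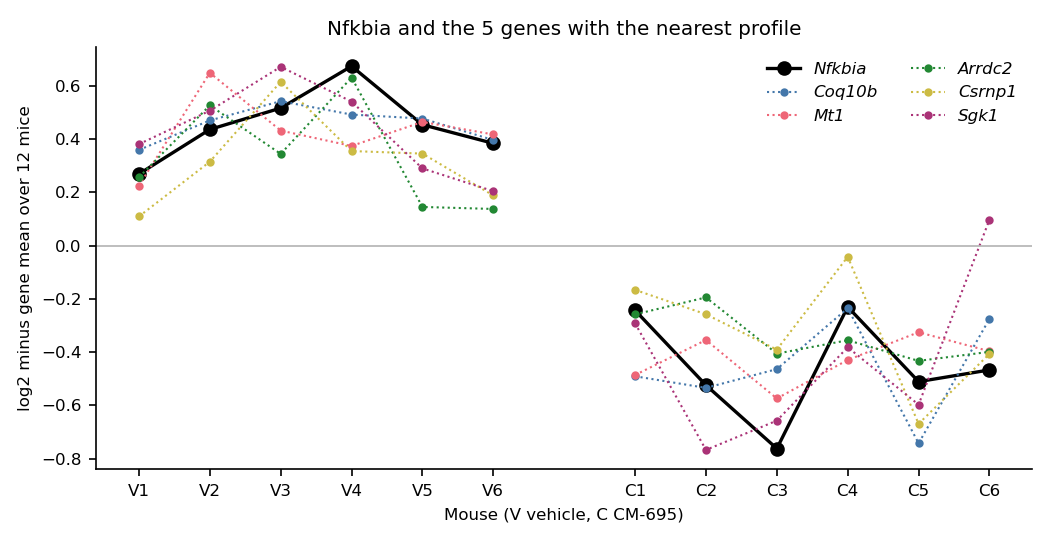
Log2 expression of Nfkbia (black) and the 5 genes with the nearest profile, each minus its mean over 12 mice, for vehicle mice (V) and CM-695 mice (C); lines only link the points of a gene. All 6 genes are above their mean in every vehicle mouse, and in CM-695 mice they are below it except for Sgk1 in mouse 6.

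Markers of other cell types were read beside these results, and none passed limma's threshold. Of all genes, 44.7% were below 0. At an unadjusted limma p under 0.05, 4.14% of all genes were lower and 4.96% higher. The mean of 12 cardiac markers was 7.65 ± 0.54 (6.72 to 8.22) after vehicle and 6.64 ± 0.68 (5.77 to 7.57) after CM-695 (SD, n = 6 each), with 11 of 12 marker differences below 0 and 7 at an unadjusted p under 0.05. With this mean as a covariate the difference of Nfkbia was -1.10 (SE 0.13, adjusted p = 0.00976). The 12 macrophage and monocyte markers, cells rich in NF-kB signalling, averaged 5.86 to 6.51 after vehicle and 5.92 to 6.64 after CM-695, and with their mean as a covariate the difference of Nfkbia was -0.92 (SE 0.11, adjusted p = 0.00687). All 10 fibroblast markers were below 0 (median -0.42, 4 at an unadjusted p under 0.05), as were 9 of 10 smooth muscle markers (median -0.27, 0 at that p). All 7 B lymphocyte markers were above 0 (median 0.39, 4 at that p), 6 of 7 platelet markers (median 0.25, 4 at that p) and 7 of 7 liver markers (median 0.35, 1 at that p). CM-695 mouse 5 stood apart for the liver markers, with a mean of 6.55 against 4.18 to 5.18 in the other treated mice, and without it, an alternative chosen after seeing the data, their median difference was 0.06. Medians were 0.12 for 9 T lymphocyte, 0.08 for 9 adipocyte, 0.01 for 10 endothelial and 0.00 for 9 neutrophil markers, the last all below the median of all values. Erythroid cells had 1 measured marker. The part of the fibroblast, smooth muscle, B lymphocyte, platelet and liver markers in these results was not tested.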

How the data were processed

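The deposited values were log2 expression for 41345 probe sets, made by the authors with RMA per the submitters' processing notes; its software is not given in the sources used here. Arrays have no depth; precision rests on having 6 mice in each group. Gene names came from the platform annotation, in which 23521 probe sets carried 1 symbol, 1814 several and 16010 none. Where a gene had several probe sets, the one with the highest mean over 12 arrays stood for it. Groups were compared with limma 3.58.1 (lmFit, eBayes, two-sided tests) under R 4.3.3, adjusted by the Benjamini-Hochberg method, and the procedure was tested on simulated data. Promoter letters came from RefSeq (GRCm38.p6).

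The genes and lists were chosen with earlier results of these data known. Besides the 9 genes, the text names list genes past the threshold or else the 3 with the smallest p, the 5 genes nearest to Nfkbia and 5 tissue genes; no list was given a set test. Alternatives were leaving out each mouse, a replicate block, 2 marker means as covariates, dropping dim probe sets, quantile normalization once more, median centring, array weights, and eBayes with trend and robust.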

Additional observations from a re-analysis of the deposited data

Results flagged for a closer look

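Among 70 groups of 6 mice checked for the 9 genes and the other named genes, 3 held a mouse whose gap to its nearest neighbour took up more of the group's range than Dixon's 95% critical value; chance alone gives about 1 in 20 groups. Vehicle mouse 2 measured 6.20 for Nfkbiz, with the next vehicle mouse at 5.75. Vehicle mouse 5 measured 6.77 for Rel, with the next at 6.46. Vehicle mouse 4 measured 5.85 for Il1rap, with the next at 5.64.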

How the results depend on the processing

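Nfkbia kept its direction in all 20 alternatives and passed in 19; with a replicate block its difference of -0.91 (SE 0.11) had limma adjusted p = 0.0745. In that block fit 0 of the 9 genes passed (1 at an unadjusted p under 0.05), 1 glucocorticoid gene passed in place of 7, and 15 probe sets in place of 64. Same-numbered mice did not deviate together over all probe sets (correlations -0.10 to 0.10, and 1 of 6 vehicle mice correlated best with its own number). This measure showed no pairing by number, but it cannot exclude an effect that same-numbered mice share in some genes. Leaving out 1 mouse gave -0.96 to -0.85 for Nfkbia, 22 to 98 probe sets past the threshold, 3 to 7 glucocorticoid genes and 3 to 5 of the 5 genes nearest to Nfkbia; within groups 0 of these 5 were shared. Without dim probe sets 11 glucocorticoid genes and 116 probe sets passed, and Nfkbie was not tested. With the cardiac covariate 0 glucocorticoid genes and 13 probe sets passed, though the differences of Ddit4 (-1.60), Errfi1 (-1.43), Sgk1 and Per1 (-1.01 each) were no smaller; with the macrophage covariate 1 gene of the IKK list, Irak3. The cause of these changes was not tested. Under the filter 20672 probe sets were fitted in place of 41345, and the SE of Nfkbia was 0.103 in place of 0.107. None of the other 8 genes passed in any alternative, and all 8 differed from Nfkbia in each one that tested them. No member had another probe set, so that alternative was not run. Falls or rises smaller than the intervals given cannot be told from no change with 6 mice per group.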
